A study of Mus musculus with 2 samples.

Results

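The regions described here were 610 binding sites of Foxp4 that lay between genes, over 1 kb and up to 50 kb from the nearest transcription start site. They were the peaks that the authors' file annotates as intergenic, with an absolute distance to the nearest start site in that range and with no repeat in the detailed annotation. They made up 610 of the 3317 peaks in the list (18.4%, exact 95% binomial interval 17.1 to 19.8), 36.4% of its 1674 intergenic peaks and 51.1% of its 1194 intergenic peaks without a repeat. Of these 610 peaks, 455 lay upstream of the nearest start site and 155 downstream of it. They were set against the 584 intergenic, repeat-free peaks that lay more than 50 kb away.

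The sites came from chromatin immunoprecipitation and sequencing (ChIP-seq) with an antibody to Foxp4, in stromal vascular fraction cells of inguinal white fat of C57BL/6 mice, sampled on day 2 of beige adipocyte differentiation in culture. The cells had spent 3 days in 20% serum before an induction of 48 h in 10% serum with troglitazone at 5 µM, T3 at 50 nM, dexamethasone at 1 µM, isobutylmethylxanthine at 0.5 mM and insulin at 5 µg/ml. There was 1 library of Foxp4 ChIP and 1 of input DNA, and only the peak list of the ChIP library was used here, so replicate error cannot be given and no p-value is printed. The peaks do not measure expression, so the labelled cell type could not be checked against marker levels. Each peak carries a score, a whole number from the authors' processing whose scale is not stated, with a median of 65 over all peaks. How deeply the library was sequenced is unknown, and all intervals cover only the error of counting peaks or genes in a single library.

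Foxp4 belongs to the forkhead family, whose members bind DNA through a winged-helix domain, and to its Foxp branch, whose members pair with one another through a leucine zipper and are known mostly as repressors. Forkhead proteins recognise short motifs of the type TGTTTAC. Intergenic sites at such distances often lie in enhancers, which can act on genes other than the nearest, so the gene named for a peak below gives its position and not its target.

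Sequence could be shown for the few peaks that reached into a RefSeq promoter window, which runs from 250 bases before to 50 bases after a gene's start, in assembly GRCm38.p6, the assembly behind mm10. Of the 610 peaks, 14 overlapped such a window, in 15 overlaps that held 2835 bp in all. In 14 of the 15 overlaps the window belonged to a gene other than the one the authors' file names as nearest, mostly non-coding RNA genes, so these peaks lay at a start site of the RefSeq table although the file places them over 1 kb from one. The stretches printed below are those with a match to a forkhead motif or its core, 1 with a simple run of bases, and 1 at the start of another protein-coding gene. Capitals mark the match, and each stretch is given 5′ to 3′ on the strand of the gene whose window it lies in.
Gm11963 window, in the peak nearest to Xbp1 (chr11:5485630-5485730, plus strand): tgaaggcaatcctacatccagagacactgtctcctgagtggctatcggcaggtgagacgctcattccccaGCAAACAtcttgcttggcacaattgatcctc
Gm40061 window, in the peak nearest to Rap2b (chr3:61391897-61391931, plus strand): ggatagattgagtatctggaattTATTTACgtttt
Gm13421 window, in the peak nearest to Wdr5 (chr2:27540176-27540461, plus strand): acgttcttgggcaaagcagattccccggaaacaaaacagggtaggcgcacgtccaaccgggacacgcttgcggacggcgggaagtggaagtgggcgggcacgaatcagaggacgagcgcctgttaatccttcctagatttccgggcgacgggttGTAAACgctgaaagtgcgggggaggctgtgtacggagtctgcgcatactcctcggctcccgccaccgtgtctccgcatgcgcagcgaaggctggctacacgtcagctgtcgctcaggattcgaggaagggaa
Gm41159 window, in the peak nearest to Nfatc4 (chr14:55823540-55823784, minus strand): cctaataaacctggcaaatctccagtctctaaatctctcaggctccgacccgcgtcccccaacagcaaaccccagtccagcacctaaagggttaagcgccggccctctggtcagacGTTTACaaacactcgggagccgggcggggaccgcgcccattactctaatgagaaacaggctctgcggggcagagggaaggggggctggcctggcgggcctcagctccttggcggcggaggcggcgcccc
Pik3ca window, in the peak nearest to Zmat3 (chr3:32396918-32397114, plus strand): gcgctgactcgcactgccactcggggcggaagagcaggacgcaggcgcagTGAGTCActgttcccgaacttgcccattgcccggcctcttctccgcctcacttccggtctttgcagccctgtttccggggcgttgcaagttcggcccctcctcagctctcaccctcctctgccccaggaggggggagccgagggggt
Gm26802 window, in the peak nearest to Fosb (chr7:19300778-19301043, minus strand): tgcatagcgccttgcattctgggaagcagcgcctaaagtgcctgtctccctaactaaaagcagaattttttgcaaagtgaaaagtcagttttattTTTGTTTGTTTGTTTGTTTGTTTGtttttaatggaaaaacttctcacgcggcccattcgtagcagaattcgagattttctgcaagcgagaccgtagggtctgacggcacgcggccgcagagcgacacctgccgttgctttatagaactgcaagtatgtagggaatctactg

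Motifs were searched on both strands. The forkhead motif TGTTTAC was in 0 of the 15 stretches, TGTTTGC was in 1 (as its reverse complement, in the peak nearest to Xbp1) and TATTTAC was in 1 (in the peak nearest to Rap2b). In the same slice of all 32851 promoter windows, TGTTTGC was found in 1.85% for the Xbp1 stretch and TATTTAC in 0.423% for the Rap2b stretch. The core GTAAAC, which is also part of TGTTTAC read on the other strand, was searched after the stretches had been seen. It was in 2 stretches, in the peaks nearest to Wdr5 and Nfatc4, and in 7.63% and 6.29% of all windows over the same slices. The motif TGANTCA of AP-1, the dimer of Fos and Jun proteins, was in 1 stretch, at the start of Pik3ca, and in 5.28% of all windows over that slice. The run of TTTG at Gm26802 held 4 repeats or more in a row, found in 0.268% of windows over that slice, although this peak carries no repeat annotation in the file. The motifs TTGCNNAA of C/EBP factors, GGAATG of TEAD factors and TTGGCA, one arm of the NFI site, were in 5, 2 and 4 of the 15 stretches, and in 10.8%, 14.7% and 14.1% of all whole windows. A whole window has 300 bp and most stretches were shorter, so these shares are an unlike background. Over the shortest slice, of 35 bp, the C/EBP motif was in 1.32% of windows. These matches describe letters in 15 stretches and not bound sites, and the rest of the peaks' sequence was not analysed here.

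The peaks lay mostly on the upstream side, and this leaning was steepest close to the start site. Upstream peaks were 455 of 610 (74.6%, 70.9 to 78.0), against 298 of the 584 peaks beyond 50 kb (51.03%, 46.9 to 55.2). From 1 to 5 kb there were 86 upstream and 6 downstream peaks (93.5% upstream, 86.3 to 97.6). From 5 to 10 kb there were 68 and 10 (87.2%), from 10 to 20 kb 101 and 35 (74.3%), and from 20 to 50 kb 200 and 104 (65.8%, 60.2 to 71.1). Beyond the upper limit the sides came near to even, with 118 upstream and 93 downstream peaks from 50 to 100 kb (55.9%) and 180 and 193 beyond 100 kb (48.3%). With an upper limit of 20 kb the upstream share was 83.3%, and with 100 kb it was 69.8%.

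**Figure D1:**
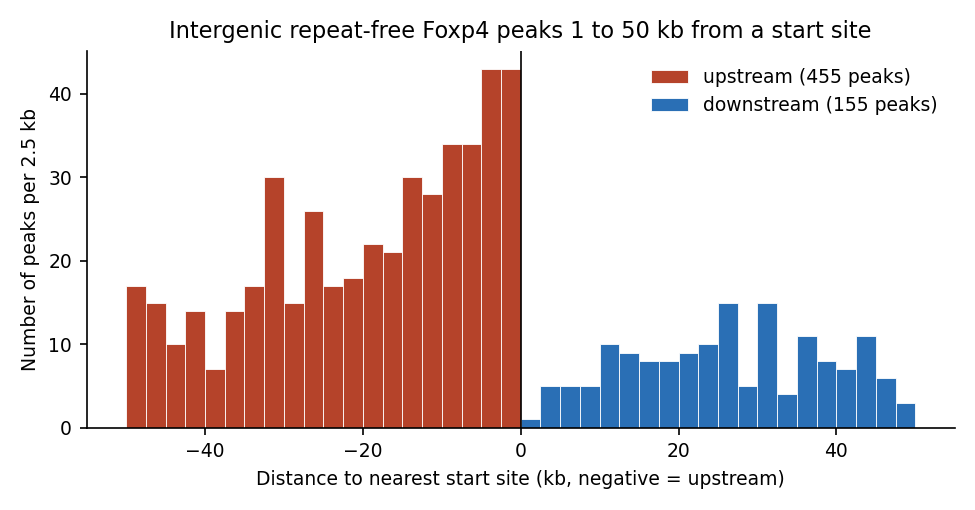
Number of intergenic repeat-free Foxp4 peaks per 2.5 kb (vertical axis) by distance to the nearest start site in kb (horizontal axis, negative upstream), in red for the 455 upstream and in blue for the 155 downstream peaks. Upstream counts are highest next to the start site, whereas downstream counts are lowest there, with 6 peaks from 1 to 5 kb.

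The intergenic class itself enters this split, because sequence just downstream of a start site lies inside the gene. In the RefSeq table the nearest gene was shorter than the peak's distance for 151 of the 155 downstream peaks. The nearest genes were shorter on the downstream side, with a median length of 8.53 kb (quartiles 3.63 to 16.1), against 30.04 kb (10.3 to 84.2) for upstream peaks. Over peaks of every class at 1 to 50 kb, 820 of 1724 lay upstream (47.6%, 45.2 to 50.0), and over the intron peaks in that range 162 of 790 did (20.5%). Where the nearest gene was under 10 kb long, 111 of 198 intergenic peaks lay upstream (56.1%, 48.8 to 63.1). Measured from the gene body in place of the start site, the median gap was 15.2 kb upstream and 12.1 kb downstream, and 108 of 454 upstream peaks (23.8%, 19.9 to 28.0) and 40 of 155 downstream peaks (25.8%, 19.1 to 33.4) lay within 5 kb of the gene.

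Peak density per Mb of intergenic sequence takes part of this geometry into account. It was computed over the 14113 of 21620 gaps between curated RefSeq genes in which the strand of both flanking genes was known, 970 of 1597 Mb. The sequence counted runs up to the gene ends, whereas the file has a class of its own for peaks at gene ends. Such peaks were not counted, and how far this lowers the density on the downstream side was not tested. At 1 to 50 kb from a start site, 377 peaks lay in 359 Mb, 1.05 per Mb (exact 95% Poisson interval 0.948 to 1.16). Beyond 50 kb there were 329 peaks in 600.0 Mb, 0.548 per Mb (0.491 to 0.611), so the density was 1.92 times higher at 1 to 50 kb (1.65 to 2.23). The fall lay mostly beyond 100 kb. From 50 to 100 kb the density was 0.869 per Mb (0.723 to 1.04), and against that ring alone the ratio was 1.21 (0.985 to 1.49), an interval that includes equal densities. Beyond 100 kb the density was 0.447 per Mb (0.388 to 0.513).

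By density, the upstream leaning was small over the whole range. Upstream sequence at 1 to 50 kb held 271 peaks, 1.10 per Mb (0.974 to 1.24), and downstream sequence held 106, 0.941 per Mb (0.771 to 1.14), a ratio of 1.17 (0.931 to 1.48). Of the intergenic sequence in this range 68.6% was upstream, as were 71.9% of the peaks in it (67.1 to 76.4). From 1 to 5 kb the density was 1.21 per Mb upstream and 0.375 per Mb downstream, a ratio of 3.23 (1.04 to 16.2) that rests on 3 downstream peaks. The intervals of the ratios at 5 to 10 kb (1.81, 0.799 to 4.80), at 10 to 20 kb (1.54, 0.921 to 2.67) and at 20 to 50 kb (0.940, 0.697 to 1.27) all include equal densities. The sequence counted here includes repeats, and the share of intergenic peaks left out for a repeat was 29.2% upstream (188 of 643) and 35.1% downstream (84 of 239).

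**Figure D2:**
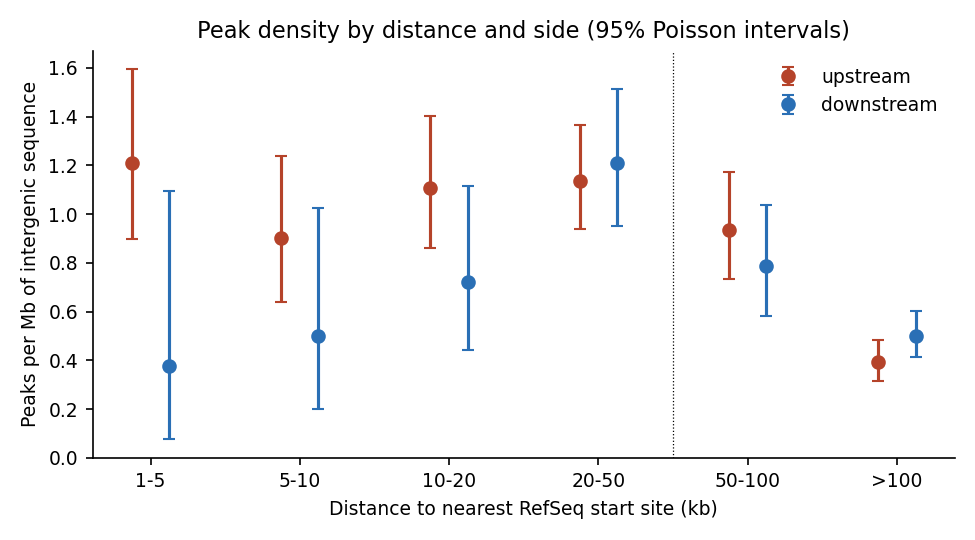
Intergenic repeat-free Foxp4 peaks per Mb of intergenic sequence (vertical axis) by distance to the nearest RefSeq start site in kb (horizontal axis), with upstream in red, downstream in blue and exact 95% Poisson intervals as bars. The upstream points from 1 to 50 kb sit between 0.901 and 1.21 per Mb, the downstream points climb to 1.21 per Mb at 20 to 50 kb, and beyond 100 kb both are under 0.6 per Mb.

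By orientation of the flanking genes, density was highest between divergent genes, but its interval overlapped those of the other kinds of gap. Gaps between divergent genes, where both flanks are gene starts, held 130 of the 377 peaks (34.5%, 29.7 to 39.5) in 27.6% of the sequence at 1 to 50 kb, a density of 1.31 per Mb (1.10 to 1.56). Gaps between genes in the same direction held 194 peaks (51.5%) in 56.3% of the sequence, 0.961 per Mb (0.830 to 1.11). Gaps between convergent genes, where both flanks are gene ends, held 53 peaks (14.1%) in 16.1% of the sequence, 0.920 per Mb (0.689 to 1.20). Peaks that the file classes as lying at a gene end are missing from these counts too.

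In score, neither side nor distance set these peaks far apart. The median score was 66 (95% interval of the median 62 to 70, range 13 to 1110), against 60 (57 to 65, range 15 to 1350) for the 584 peaks beyond 50 kb. Upstream peaks had a median score of 66 (60 to 70, range 13 to 1098) and downstream peaks one of 68 (60 to 78, range 15 to 1110). A score at or above the median of all peaks was reached by 312 of the 610 (51.1%, 47.1 to 55.2), against 272 of the 584 (46.6%, 42.5 to 50.7). A score of 200 or more was reached by 37 of the 610 (6.07%, 4.31 to 8.26) and by 32 of the 584 (5.48%, 3.78 to 7.65). Over the whole list it was reached by 276 of 3317 peaks (8.32%, 7.40 to 9.31), a higher share than in either group. The peaks were 401 bp wide at the median (range 288 to 1439) and covered 271 kb, and those beyond 50 kb were 398.5 bp wide. Among the 10 highest-scoring peaks of the whole list were 2 of the 610, and among the 100 highest were 9, whereas the 610 were 18.4% of the list.

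**Figure D3:**
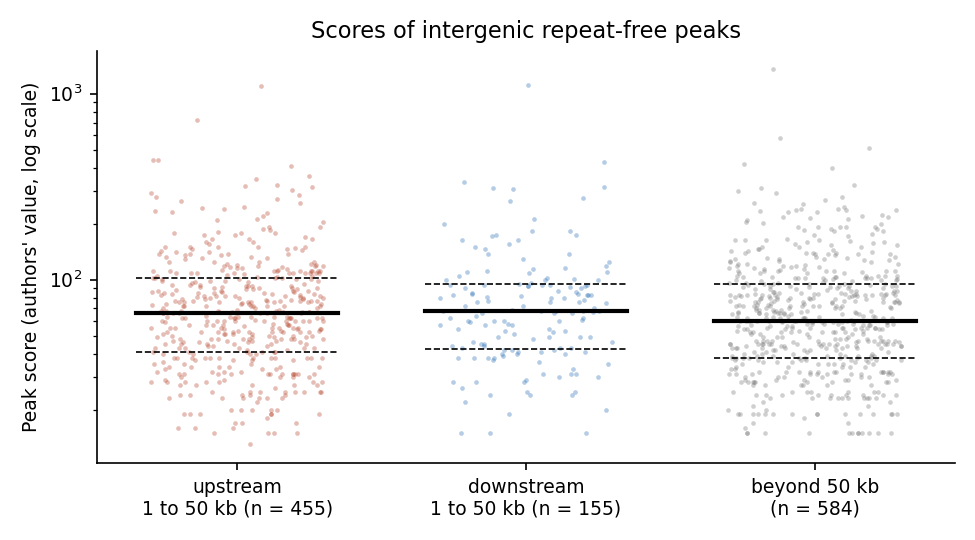
Scores of single peaks (vertical axis, log scale, the authors' values) for the 455 upstream peaks and the 155 downstream peaks at 1 to 50 kb and the 584 peaks beyond 50 kb. Solid lines mark the medians of 66, 68 and 60 and dashed lines the quartiles, and the clouds overlap over nearly their whole range.

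The strongest peaks stood near genes of varied function. The highest-scoring upstream peak had a score of 1098 and lay 7.92 kb from Bloc1s5, which encodes a subunit of the BLOC-1 complex of lysosome-related organelles (chr13:38642377-38643687). The second, with a score of 721, lay 10.4 kb upstream of Ahcyl1, a regulator of inositol trisphosphate receptors, and inside a long non-coding RNA gene of the RefSeq table, Gm40121. Retn, the gene of the adipocyte hormone resistin, had a peak of 440 at 8.81 kb upstream (chr8:3646714-3647200). Plpp1, a lipid phosphate phosphatase, had a peak of 360 at 28.0 kb upstream, and Gli2, a transcription factor of Hedgehog signalling, had a peak of 346 at 29.3 kb upstream. Foxo3, a forkhead factor under the control of insulin signalling, had a peak of 319 at 1.22 kb upstream, in a CpG island (chr10:42277593-42278333). The other upstream peaks among the 10 highest were nearest to the non-coding genes Gm6116 (442) and 6030469F06Rik (408), to Gpr62, an orphan G-protein-coupled receptor (324), and to Vps45, a protein of vesicle fusion (317).

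On the downstream side the highest score was 1110, at a peak 23.5 kb from the microRNA gene Mir7007 (chr3:20198574-20199195). Among the other peaks of the 10 highest, Ccr7, a chemokine receptor, had a peak of 335 at 13.4 kb downstream and Usp18, which removes ISG15 from proteins, had a peak of 317 at 26.9 kb downstream. Mir21a had a peak of 308 at 2.29 kb downstream. Lep, the gene of the adipocyte hormone leptin, had a peak of 200 at 28.6 kb downstream (chr6:29088598-29089000). Further peaks among these 10 were nearest to the pseudogene Pdxk-ps (313), to Lacc1 (276) and to the non-coding genes Gm29508 (266) and 1700023C21Rik (211). The 10 highest scores thus ran over 317 to 1098 upstream and over 200 to 1110 downstream. The 3 highest scores beyond 50 kb were 1350 at 188 kb upstream of Tapt1, 579 at 56.1 kb downstream of Plekho2 and 511 at 287 kb upstream of Adamts5, an aggrecan-cleaving protease.

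Just inside the lower limit lay peaks 1.01 kb upstream of Egr2, a zinc-finger factor of the immediate-early response (score 25), and 1.02 kb upstream of Fosl2, an AP-1 subunit (47). Just outside it lay a peak in an intron of Hnrnph1 (0.978 kb downstream, score 75) and a promoter peak of 5430437J10Rik (0.978 kb upstream, score 53). Within 1 kb lay 0 of the 1674 intergenic peaks, a count that reflects the file's classes, which label peaks so near to a start as promoter, intron or others. Just inside the upper limit lay the peaks nearest to Mir5098 (score 92) and 1700003P14Rik (94), and just outside it those nearest to Atf7ip (192) and 1700016G22Rik (16). The file places Mir5098 on chromosome 8, whereas the reference table has a gene of that name on chromosome 5.

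Not every peak that the file calls intergenic was free of genes in the RefSeq table. Of the 610, 126 lay in a gene of that table (20.7%, 17.5 to 24.1), against 110 of the 584 beyond 50 kb (18.8%, 15.7 to 22.2). Most of these genes were long non-coding RNAs, which held 88 of the 610 (14.4%, 11.7 to 17.5) and 93 of the 584 (15.9%, 13.05 to 19.1). Genes with a curated transcript held 41 (6.72%, 4.87 to 9.01) and 26 (4.45%, 2.93 to 6.46). For 23 upstream peaks the gene was the nearest gene itself, whose body in the table reaches past the start site that the file used. Among these were peaks of Kcna2, a potassium channel (score 179), Pid1, a phosphotyrosine-binding adaptor (150), Nav3, a neuronal navigator protein (150), Pde1a, a phosphodiesterase of cAMP and cGMP (148), and Zfhx3, a homeobox factor (136 and 77). These genes were chosen after their values were seen.

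Peaks in CpG islands lay mostly upstream, as did the 610 peaks as a whole (74.6%). The file's detailed annotation places 22 of the 610 peaks in a CpG island (3.61%, 2.27 to 5.41), against 3 of the 584 beyond 50 kb (0.514%, 0.106 to 1.49). Over the whole list it places 41 of 3317 peaks in one (1.24%, 0.888 to 1.67). Of the 22 peaks, 21 lay upstream (4.62% of 455, 2.88 to 6.97) and 1 lay downstream (0.645% of 155, 0.0163 to 3.54), at Socs3, an inhibitor of cytokine signalling (score 76). The intervals of the sides overlap, and the part of distance to the start site in this split was not tested. The 2 highest scores were at forkhead genes, 319 for Foxo3 and 241 for Foxp1, a partner of Foxp4 in the same branch of the family, 1.98 kb upstream (chr6:99522676-99523261). Next came Map1lc3b, a membrane protein of autophagosomes (210), and Klf9, a Krüppel-like factor induced by glucocorticoids (105). Several others were nearest to immediate-early genes, with 85 at Fos (18.4 kb upstream), 47 at Fosl2, 41 at Zfp36l1, 38 at Nr4a1 (20.5 kb upstream) and 25 at Egr2. This class was picked out after the values were seen. Among the rest were Nfatc4 (72), Efna5 (69), Zfp395 (66), Zmat3 (62) and Rn4.5s (58). At the low end were Ercc1 (20) and Mir670 (19).

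The 610 peaks were spread over 563 nearest genes. Of these genes 522 had 1 peak, 35 had 2 and 6 had 3, and 0 had 4 or more. By gene type, 477 peaks were nearest to a protein-coding gene, 127 to a non-coding RNA gene, 5 to a pseudogene and 1 to a ribosomal RNA gene. Another peak of any class at the same nearest gene was found for 218 of the 610 (35.7%, 31.9 to 39.7), against 354 of the 584 beyond 50 kb (60.6%, 56.5 to 64.6). Within 10 kb, by contrast, another peak of any class lay beside 86 of the 610 (14.1%, 11.4 to 17.1) and 64 of the 584 (11.0%, 8.54 to 13.8). Within 5 kb these shares were 9.02% (6.86 to 11.6) and 4.79% (3.21 to 6.86). The 86 peaks with such a neighbour within 10 kb had a median score of 76, against 66 for the peaks without one, but with a window of 20 kb these medians were 62.5 and 66. Beyond 50 kb, peaks with and without a neighbour within 10 kb had medians of 44.5 and 62. With only peaks at or above the median score of the list kept, 8.01% had a neighbour within 10 kb and 22.4% had another peak at the same gene.

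The genes with 3 peaks, chosen after their values were seen, included a pair of neighbouring chemokine genes. Of these, 3 peaks lay 25.4, 38.2 and 47.2 kb downstream of Cxcl15, with scores of 174, 115 and 38. A further 3 lay 35.4, 14.9 and 10.2 kb upstream of Cxcl1, a neutrophil attractant, with scores of 63, 25 and 53. These 6 peaks fill one stretch of 61.4 kb on chromosome 5 (chr5:90819742-90881159), in which the score was highest at the end toward Cxcl15. Upstream of Cxcl5, another chemokine gene on that chromosome, a peak of 76 lay at 5.46 kb.

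The other genes with 3 peaks were of several kinds. Mir21a had scores of 308, 24 and 90 at 2.29, 4.70 and 12.6 kb downstream, and the list held 9 peaks of any class nearest to it. Irf2bp2, a co-repressor that binds interferon regulatory factors, had low scores of 41, 38 and 27 at 26.4, 10.0 and 2.81 kb upstream, and 3 more intergenic peaks of 24, 83 and 79 beyond 50 kb. The non-coding genes Gm30726 (119, 31 and 30) and Gm19723 (57, 19 and 96) had these 3 peaks upstream, and Gm30726 had a further, repeat-annotated peak of 63 at 43.6 kb downstream. In each of these 6 genes the 3 peaks counted here lay on 1 side.

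**Figure D4:**
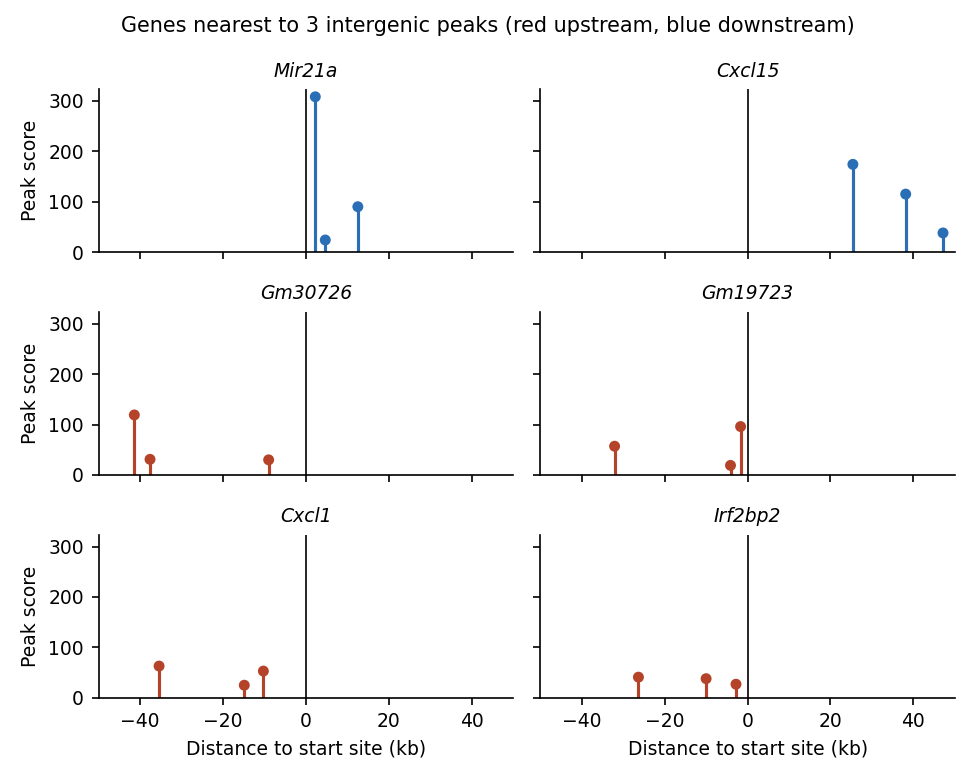
Peak score (vertical axis, the authors' value) by distance to the start site in kb (horizontal axis) for the 6 genes nearest to 3 of the 610 peaks, red upstream and blue downstream. Only these peaks are drawn: those of Mir21a and Cxcl15 are downstream, with top scores of 308 and 174, and those of the other 4 genes are upstream.

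MicroRNA genes were the nearest gene of 19 of the 610 peaks, at 16 genes. The share over all peaks of the list is not given here, and microRNA genes such as Mir148a were also nearest to peaks beyond 50 kb. The count is therefore not a trait of these 610 peaks. Mature sequences from RefSeq are shown for the gene with the highest score and for those with more than 1 peak, with the seed, bases 2 to 8, in capitals.
miR-7007-5p: uCAGAAGAggcaguggaggagau
miR-21a-5p: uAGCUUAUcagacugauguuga
miR-101a-3p: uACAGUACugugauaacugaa
These 3 seeds differ from one another. Mir101a had peaks of 85 and 44 at 25.9 and 27.0 kb downstream. The peak of Mir29b-1, whose family targets collagen transcripts, had a score of 121 at 26.0 kb upstream.

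Some of the nearest genes also had a peak at the start site. A peak within 1 kb of the nearest gene's start was present for 27 of the 610 (4.43%, 2.94 to 6.37), against 15 of the 584 beyond 50 kb (2.57%, 1.44 to 4.20). In the 22 genes concerned, the highest of the distal peaks scored above the highest start-site peak in 12. The distal peak was the higher one at Mir21a (308 against 82 at the start), Dhrs3, a retinal reductase (174 against 28), Lox, a collagen cross-linking enzyme (138 against 38), and Klf9 (105 against 46). It was the lower one at Plekhf1 (45 against 972), Tnrc18 (55 against 280), Zfp36l1 (41 against 141) and Junb (30 against 115). These genes were chosen after their values were seen. Intron peaks at the nearest gene accompanied 73 of the 610 (12.0%, 9.50 to 14.8) and 94 of the 584 (16.1%, 13.2 to 19.3). The shares of all genes with a start-site or intron peak are not given here, so these values have no background over genes.

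Gene lists for this tissue and treatment were counted by their nearest genes. Of all 21887 protein-coding genes, 448 were nearest to at least 1 of the 610 peaks (2.05%). The share was 1.64% for upstream peaks, 0.429% for downstream peaks and 1.44% for the peaks beyond 50 kb. The median territory, which is the gene body with the gaps up to the midpoints toward its neighbours, was 45.1 kb for the 448 genes and 17.0 kb for all protein-coding genes. List shares are given beside the 2.05% of all protein-coding genes as a description, and the part of territory in them was not tested. Of the 984 genes on the 25 lists together, 70 were nearest to one of the 610 peaks. A share above 2.05% is thus not particular to any 1 list. Lists overlap, so that Klf9, Klf15, Lox, Egr2 and others count in more than 1.

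Immediate-early genes and AP-1 subunits, which answer fast to serum and other stimuli, had the highest share of the 25 lists. Of 37 such genes, 10 were nearest to a peak (27.0%, 13.8 to 44.1), 8 of them upstream and 2 downstream, and their median territory was 34.0 kb. Zfp36, an mRNA decay factor, had a peak of 112 at 2.00 kb upstream, Klf2, a Krüppel-like factor, one of 98 at 15.2 kb upstream, Fos one of 85 at 18.4 kb upstream, and Fosl2 peaks of 79 and 47 at 2.64 and 1.02 kb upstream. Their 11 peaks were not strong, with a median score of 46, against 66 for all 610. The count was 5 with a lower limit of 3 kb in place of 1 kb, and 4 when only peaks at or above the median score of the list were kept. Peaks beyond 50 kb were nearest to 2 of the 37 genes.

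Genes induced by glucocorticoids, of which dexamethasone in the medium is one, followed with 6 of 28 (21.4%, 8.30 to 41.0), at a median territory of 41.1 kb. Lox had a peak of 138 at 20.2 kb downstream, Sgk1, a kinase, one of 109 at 46.0 kb upstream, Klf9 one of 105 at 6.11 kb upstream, and Klf15, a Krüppel-like factor, one of 83 at 39.1 kb downstream. Per1, a clock gene, had one of 73 at 4.02 kb upstream. The count was 2 with an upper limit of 20 kb.

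Adipogenic regulators were nearest to a peak in 6 of 40 cases (15.0%, 5.71 to 29.8), at a median territory of 50.8 kb. Besides Klf9, Klf2 and Klf15, Ebf2, a factor of the beige and brown lineage, had a peak of 52 at 30.03 kb upstream. Pparg, the master regulator of adipogenesis and the receptor that troglitazone binds, had a weak one of 28 at 47.7 kb upstream. The count was 3 with an upper limit of 20 kb and 3 when only peaks at or above the median score were kept. Peaks beyond 50 kb were nearest to 5 of the 40 genes. Lipid storage and lipolysis genes had 5 of 44 (11.4%, 3.79 to 24.6), with Retn, Lep, Scd1, a fatty acid desaturase (112), and Lpin2, a phosphatidate phosphatase (68), and a median score of 112, and the count was 3 with an upper limit of 20 kb. Thermogenic and beige genes had 2 of 40 (5.00%, 0.611 to 16.9), namely Dio2, which activates thyroid hormone (93 at 44.6 kb downstream), and Ebf2. Beyond 50 kb the lipid list and the thermogenic list had a count of 1 each.

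Matrix, progenitor, cytokine and Wnt genes also had shares above the 2.05% of all protein-coding genes. Their median territories were, in this order, 50, 50, 47.6 and 28.0 kb, against 17.0 kb for all protein-coding genes. Extracellular matrix genes had 12 of 82 (14.6%, 7.80 to 24.2), with Nid2 of basement membranes (108), Loxl4 (97) and the protease Adamts1 (94) beside Lox, and the count was 6 at or above the median score and 5 with an upper limit of 20 kb. Progenitor and fibroblast genes had 6 of 45 (13.3%, 5.05 to 26.8), among them F3, tissue factor (112 at 10.6 kb upstream), Sema3c, a secreted guidance protein (90), and Col3a1, a fibrillar collagen (82 at 11.8 kb upstream), with a count of 3 at an upper limit of 20 kb. Cytokine and chemokine genes had 8 of 54 (14.8%, 6.62 to 27.1), with Il6st, the shared receptor of IL-6 cytokines (115), Nfkb1 (112) and Socs3 (76), and the count was 3 with an upper limit of 20 kb. Wnt genes had 5 of 64 (7.81%, 2.59 to 17.3), all upstream, and 8 with repeat-annotated peaks kept. They were led by Rspo3, which amplifies Wnt signals (125), the receptor Lgr5 (94), and the ligands Wnt16 (68) and Wnt10b (67). Beyond 50 kb the counts were 4 for matrix, 2 for progenitor, 3 for cytokine and 3 for Wnt genes.

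Smaller counts were found for the growth factor list, 4 of 46 (8.70%, 2.42 to 20.8), led by Spry1, a feedback inhibitor (159), and for nuclear receptors, 4 of 48 (8.33%, 2.32 to 20.0), led by Vdr, the vitamin D receptor (125). At or above the median score of the list the count was 1 for each of these lists. Forkhead genes had 4 of 44 (9.09%, 2.53 to 21.7), all upstream, with Foxo3 and Foxp1 as above, Foxj2 (55) and Foxk1 (44), and the count was 2 at or above the median score and 2 with a lower limit of 3 kb. The circadian clock list had 2 of 24 (8.33%, 1.03 to 27.0), Per1 and Nfil3 (15). The TGF-beta and BMP list had 3 of 57 (5.26%, 1.10 to 14.6), led by the activin subunit gene Inhbb (179). Patterning factors had 3 of 68 (4.41%, 0.919 to 12.4), with Gli2, Osr2 (180) and Prrx1 (85), and axon guidance genes 3 of 70 (4.29%, 0.893 to 12.0). The intervals of the clock, TGF-beta and BMP, thermogenic, patterning and axon guidance lists include the background, as do those of insulin signalling, 1 of 42 (Foxo3), and of cAMP signalling, 1 of 46 (Pde1a). The 25 intervals were not adjusted for their number, and the lists were chosen with earlier results known. An interval above the background is therefore no result about its list. Beyond 50 kb the counts were 7 for growth factors, 5 for patterning, 4 for axon guidance and 3 for TGF-beta and BMP genes. They were 2 each for nuclear receptors, forkhead, insulin and cAMP genes, and 1 for the clock list.

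Other lists held no nearest gene at all. Cell cycle genes had 0 of 42, with an upper limit of the exact interval of 8.41%, and ribosomal proteins had 0 of 50 (upper limit 7.11%), at median territories of 8.91 and 8.76 kb. Markers of other cells that a stromal vascular fraction can hold had 0 of 20 for macrophages, 0 of 20 for endothelial cells, 0 of 15 for smooth muscle cells and pericytes, 0 of 15 for mesothelial cells and 0 of 24 for neurons and glia. The median territories of these marker lists were, in this order, 22.9, 28.1, 17.5, 21.9 and 35.3 kb. The intervals of these 7 lists each include the 2.05% of all protein-coding genes. For peaks beyond 50 kb each of these lists also had a count of 0. With repeat-annotated peaks kept, the ribosomal, endothelial and neuronal lists had 1 each.

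**Figure D5:**
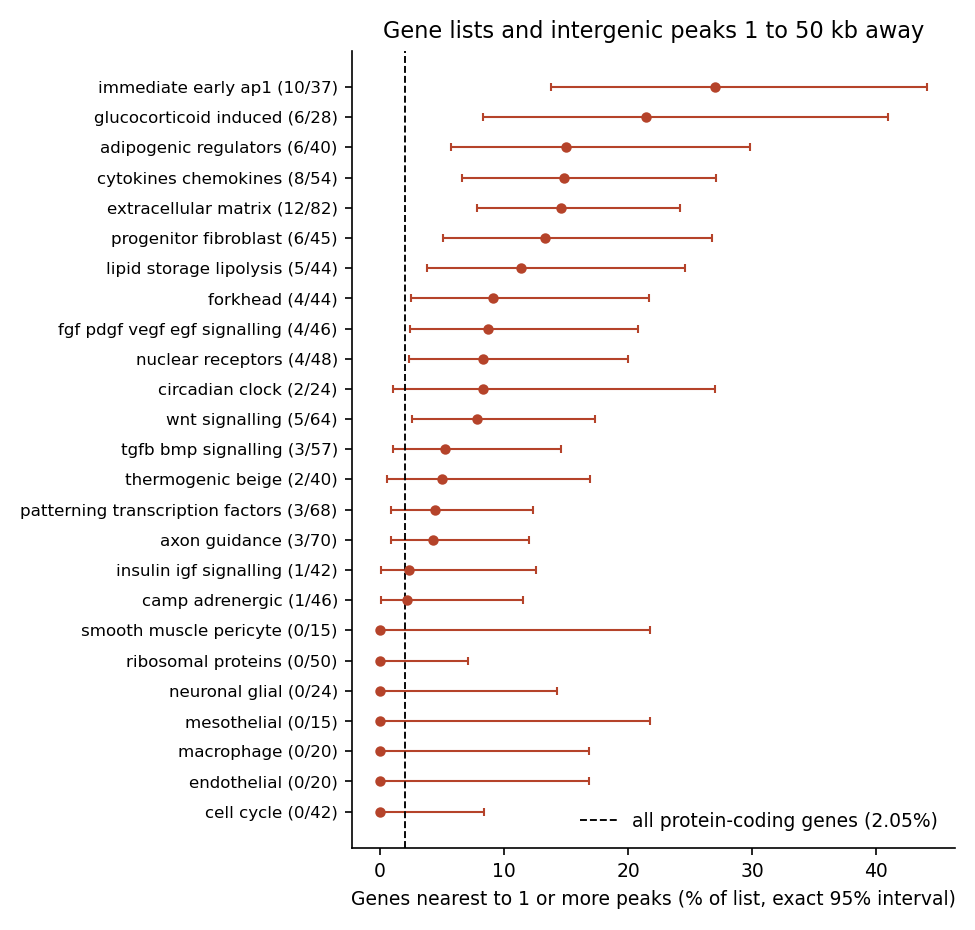
Share of each gene list that was nearest to at least 1 of the 610 peaks (horizontal axis, percent of the list's genes, with exact 95% binomial intervals), one list per line with its count, and the 2.05% of all protein-coding genes as a dashed line. The immediate-early list is highest at 27.0% and 7 lists are at 0.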

How the data were processed

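Peaks of 1 Foxp4 ChIP library were analysed, and the input library was not used here. The authors deposited a list of narrowPeak calls on mm10 to which HOMER (annotatePeaks.pl) had added annotation, per the file headers, with 1 score per peak as the only measure of strength. The submitters' processing notes name deepTools 3.3.0, MACS2, Bowtie2, SAMtools and Picard. Their roles, the peak threshold and how the input entered the calls are not given in the sources used here, and they decide which weak sites and repeats appear. The score served only to rank, filter and describe peaks of this list.

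Annotation, nearest gene and signed distance are the file's, and 1 line without a peak was left out. Gene names, bodies and promoter sequences came from RefSeq tables of GRCm38.p6. For densities, distances were recomputed every 100 bp to 23307 RefSeq start sites, and 97.6% of the 370 peaks that lay in these gaps kept their side. Of these 370 peaks, 320 (86.5%) kept their distance to within 5 bp. The density computation was tested on simulated positions. Shares have exact (Clopper-Pearson) intervals, densities Poisson intervals and medians order-statistic intervals, at 95%. With 1 library no test across samples exists. The planned motif scan was run only on stretches inside promoter windows, since no genome was given, and the glucocorticoid receptor, EBF and whole NFI motifs were not searched.

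The peaks and the 25 gene lists (991 symbols, 2 unmatched, Cd142 and Cd29) were chosen with earlier results of these data known. Named were the 10 highest-scoring peaks per side, up to 4 genes per list by score, genes with 4 or more peaks, the 3 highest beyond 50 kb and the 2 nearest each limit. A downstream peak named by this rule is not reported here. Python 3.11.15 with NumPy 2.4.6, pandas 2.3.3, SciPy 1.17.1 and Matplotlib 3.10.9 was used.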

Additional observations from a re-analysis of the deposited data

How the results depend on the processing

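The counts and shares moved with the limits of distance and score. Of 256 recomputed values, 193 stayed near the main value and 63 moved. A list with a count of 0 could only stay at 0 under a stricter limit, so part of the 193 was fixed in advance. Keeping only scores of at least 30 gave a median score of 72 and 1.80% of protein-coding genes nearest to a peak. Keeping scores at or above the median of the list gave 312 peaks, a median score of 98.5, 22.4% with another peak at the same gene, 8.01% with one within 10 kb and 1.08% of protein-coding genes. A lower limit of 3 kb gave 1.83% of these genes. An upper limit of 20 kb gave 306 peaks, 83.3% upstream and 1.11% of genes, and one of 100 kb gave 69.8% upstream, 40.3% with another peak at the same gene and 2.59% of genes. Keeping repeat-annotated peaks gave 2.97% of genes. Only peaks nearest to protein-coding genes gave 79.0% upstream and 31.9% with another peak at the same gene. Neighbour windows of 5 and 20 kb gave 9.02% and 21.97%. Of 175 list counts, 36 moved by over 1.5 times.

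The densities and their alternatives were chosen after seeing the data. The ratio of 1.92 between 1 to 50 kb and beyond 50 kb became 1.21 (0.985 to 1.49) against 50 to 100 kb alone, and lay between 1.75 and 1.96 with repeat-annotated peaks kept, with either score limit and on autosomes only. The upstream to downstream ratio of 1.17 lay between 1.10 and 1.16 under these 4 alternatives, each interval including 1. No paired analysis was possible because there is 1 ChIP library. Without replicates or read depth, neither the spread between cultures nor the depth behind a score can be given.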
